A study of Danio rerio with 6 samples.

Results

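The 8 genes described here act in the folding of secreted and membrane proteins in the endoplasmic reticulum (ER) of zebrafish embryos. They are the protein disulfide isomerase genes pdia3, pdia4, pdia6 and pdia7, the related transmembrane gene tmx2a, and the glycoprotein folding and chaperone genes prkcsh, calr and hspa5. Every probe set whose only annotated gene symbol was one of these was taken, which gave 11 of the 15617 probe sets on the array: 2 each for pdia7, tmx2a and calr and 1 for each of the other genes. The genes were chosen with their difference between genotypes already known, so that difference is described here and not tested. Tests were made on 107 other genes of the same pathway. Those genes too were listed with earlier results of these data known, so their tests are not independent of those results.

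The samples were RNA from whole embryos at 25 hours post fertilization (hpf), 3 labelled as prdm1a null mutants and 3 labelled as wild type. Mutants and wild types were told apart by eye from their phenotype, and the labels do not name the allele, the parents or the number of embryos per sample. The mutated gene, prdm1a, encodes a DNA-binding regulator of transcription needed for slow muscle fibres, neural crest cells and sensory neurons. No probe set carries its name here, so the labels could not be checked at the gene itself. RNA was reduced in ribosomal RNA, amplified as whole-transcript cDNA, labelled with biotin and read on 1 Affymetrix array per sample.

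Proteins that enter the ER fold with the help of several linked systems. Disulfide isomerases make and exchange the bonds between cysteines. On glycoproteins, glucosidases trim the sugar chain so that the lectin chaperones calnexin and calreticulin can hold the protein and bring it to a disulfide isomerase. The chaperone BiP, encoded by hspa5, binds unfolded chains and also keeps the sensors of the unfolded protein response at rest, and transcripts of many of these genes are known to increase when that response is active. Secretory tissues of the embryo such as the hatching gland and the notochord make much use of this machinery.

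Signals are on a linear scale after a common scaling of the arrays, whose medians lay between 132.4 and 147.9. The number of arrays limits the precision, and the median standard error (SE) of a log2 difference was 0.222. In a whole embryo, fewer cells of a type and less RNA per cell cannot be told apart. As a sign of RNA quality, control probe sets were compared at the 3' end and the 5' end of a transcript. The ratio of 3' to 5' signal did not overlap between genotypes for either control. For actc1b this ratio was 26.2, 38.8 and 35.8 in the mutant arrays, against 55.4, 59.3 and 92.4 in the wild-type arrays (replicates 1, 2 and 3; two-sided exact permutation p = 0.1, the lowest value possible with 3 arrays a group). For gapdhs it was 7.08, 7.65 and 3.28 in the mutant, against 9.16, 11.7 and 14.5 in the wild type (exact permutation p = 0.1). The actc1b gene itself read higher in every mutant array, with a log2 difference of 0.38 (SE 0.09) at its brightest probe set. This difference did not pass the test described below (limma adjusted p = 0.0558), and whether it changed the actc1b ratio was not tested. Values with either ratio as a covariate are given beside each of the 8 genes and each list gene that passed and is named, except myl13, mylpfa and tpma. Because neither ratio overlapped between genotypes, such a fit cannot cleanly separate ratio from genotype. Its SE was larger for each tested probe set of the 8 genes (for pdia3 0.20 with gapdhs and 0.25 with actc1b, against 0.12). A call lost there therefore does not show what caused the difference.

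All 8 genes had a mean signal in the mutant at or above that in the wild type, but the sizes fell into different ranges. Read from the brighter probe set of each gene, pdia3, prkcsh, tmx2a, calr and pdia7 were 1.59 to 1.99-fold higher in the mutant, pdia4 and pdia6 were 1.31-fold and 1.22-fold higher, and hspa5 was level at 1.02-fold, with a sign that changed after median centring (log2 difference -0.01). The median log2 difference of the 8 genes was 0.75, where that of all 7053 named genes tested was 0.00. Of the 11 probe sets 10 passed the filter on dim values (a mean signal of at least 41.1), each with both genotype means above that level. In the fit across all probe sets (limma, adjusted p under 0.05), 4 of the 10 member probe sets tested were called, all higher, where 3.39% of all tested probe sets were called and 1.54% were called higher. Those were the probe set of pdia3, that of prkcsh and the brighter ones of pdia7 and tmx2a. Without the variance trend 1 of the 4 was called. With either control ratio as a covariate 0 were, in fits with the larger SE given above. Every mutant array lay above every wild-type array for 7 of the 10, where this held for 13.2% of all tested probe sets, the reverse for 13.8% and either for 27%. Because the genes were picked on this contrast, these counts describe the choice and are no evidence beyond it.

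**Figure D1:**
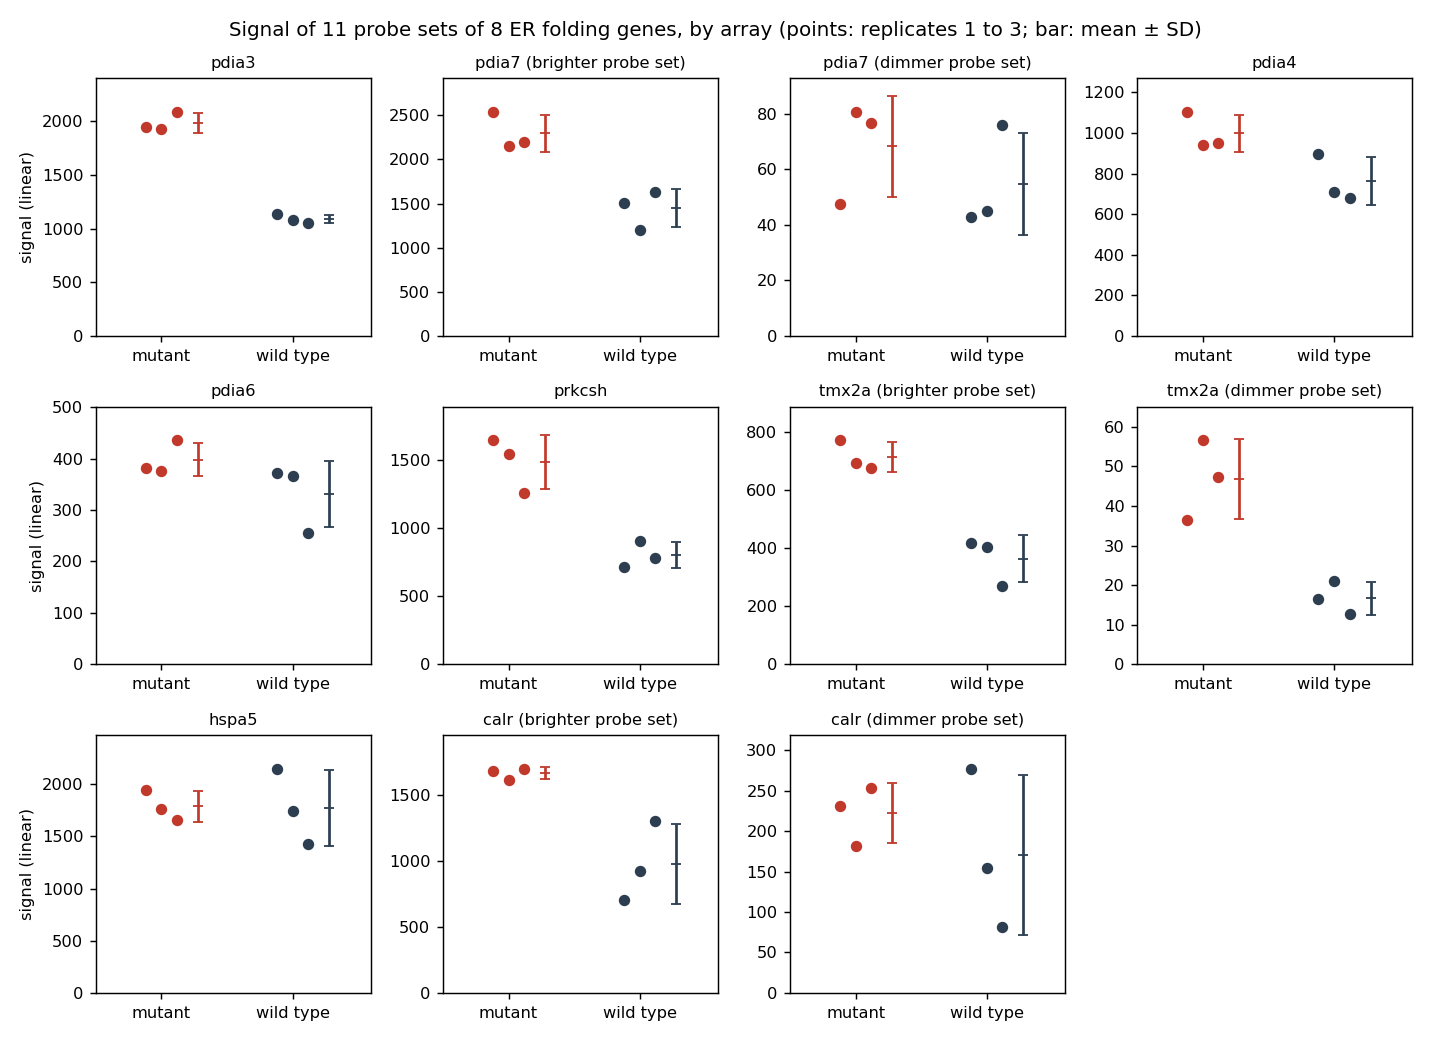
Signal of each of the 11 probe sets (vertical axis, linear scale from 0) on the 3 mutant arrays and the 3 wild-type arrays, with the mean ± SD beside the points. The points of pdia3, prkcsh and the brighter tmx2a probe set form separate groups by genotype, those of pdia4 and pdia6 nearly touch, and those of hspa5 overlap.

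Among the disulfide isomerases, pdia3 gave the tightest difference. It encodes the isomerase known as ERp57, which works on glycoproteins held by calnexin and calreticulin. Its signal was 1941, 1923 and 2085 in the mutant, against 1133, 1083 and 1052 in the wild type. The arrays of a genotype differed by no more than 1.08-fold, and the lowest mutant array was 1.7 times the highest wild-type array. The log2 difference was 0.86 (SE 0.12), or 1.82-fold. It stayed between 0.83 and 0.89 with any array left out, and was 0.75 (SE 0.20) with the gapdhs ratio and 0.81 (SE 0.25) with the actc1b ratio as a covariate.

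A further family member, pdia7, had 2 probe sets of very different brightness. The brighter read 2538, 2153 and 2199 in the mutant, against 1507, 1206 and 1630 in the wild type. These arrays did not overlap, and the log2 difference was 0.67 (SE 0.15), or 1.59-fold. With 1 array left out it lay between 0.55 and 0.76, and it was called in 1 of those 6 fits, the one without wild type replicate 3. As a covariate the gapdhs ratio gave 0.75 (SE 0.25) and the actc1b ratio 0.74 (SE 0.31). The dimmer probe set read 47.5, 80.6 and 76.6 in the mutant, against 42.9, 45.1 and 75.8 in the wild type, near the filter level of 41.1. Its arrays overlapped, and its log2 difference of 0.33 (SE 0.36) had a wide error. It was 0.40 (SE 0.58) with the gapdhs ratio and 1.59 (SE 0.58) with the actc1b ratio as a covariate.

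The isomerases pdia4 and pdia6 differed less. The first, pdia4, encodes ERp72, a soluble isomerase with several thioredoxin-like domains. Its signal was 1103, 941 and 948 in the mutant, against 897, 711 and 682 in the wild type, a log2 difference of 0.39 (SE 0.16). The genotypes were separated, though the lowest mutant array was only 1.05 times the highest wild-type array. The isomerase of pdia6, known as P5, binds BiP. It read 382, 376 and 435 in the mutant, against 371, 366 and 256 in the wild type, a log2 difference of 0.28 (SE 0.20). Wild type replicate 3 was low, and the other 2 wild-type arrays lay just below the lowest mutant array. Without that array the pdia6 difference was 0.11. For pdia4 the difference was 0.33 (SE 0.26) with the gapdhs ratio and -0.01 (SE 0.29) with the actc1b ratio as a covariate. For pdia6 these values were -0.02 (SE 0.29) and -0.18 (SE 0.37).

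The gene tmx2a encodes a membrane-bound protein with a thioredoxin-like domain. Its brighter probe set read 772, 695 and 676 in the mutant, against 419, 404 and 271 in the wild type. The log2 difference was 0.99 (SE 0.20), or 1.99-fold, the highest of the brighter probe sets of the 8 genes. Its dimmer probe set lay below the filter level and was not tested. There the signal was 36.4, 56.5 and 47.4 in the mutant, against 16.5, 21.0 and 12.7 in the wild type. The brighter one stayed between 0.79 and 1.11 with 1 array left out, where it was called without wild type replicate 1 or 3 only, and was 0.88 (SE 0.32) with the gapdhs ratio but 0.31 (SE 0.32) with the actc1b ratio as a covariate.

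Its paralog tmx2b, from the list of other isomerase genes, is read from a probe set with a signal of 51.0, 64.1 and 87.7 in the mutant, against 53.9, 54.9 and 86.8 in the wild type. That probe set did not pass at a log2 difference of 0.05 (SE 0.33, limma adjusted p = 0.944). Another 3 tmx2b probe sets, all below the filter, were at 1.36, 1.05 and 2.06. Whether transcripts of one paralog bind probes of the other was not tested.

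In the glycoprotein cycle, prkcsh encodes the beta subunit of glucosidase II, the enzyme that trims glucose from the sugar chain. Its signal was 1642, 1541 and 1260 in the mutant, against 714, 908 and 784 in the wild type. The groups were well apart, with the lowest mutant array 1.39 times the highest wild-type array. The log2 difference was 0.88 (SE 0.16), or 1.84-fold. It ran from 0.80 to 1.0 with 1 array left out and was 1.16 (SE 0.23) when the gapdhs ratio was a covariate and 0.75 (SE 0.33) when the actc1b ratio was. It was called in 2 of those 6 fits, without mutant replicate 3 and without wild type replicate 3. The catalytic subunit gene ganab is not analysed here.

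Calreticulin, the soluble lectin chaperone that also stores calcium, was read by 2 calr probe sets that did not behave alike. The brighter read 1683, 1614 and 1696 in the mutant, against 702, 922 and 1300 in the wild type. The mutant arrays lay within 1.05-fold of one another and the wild-type arrays spread over 1.85-fold. The log2 difference was 0.82 (SE 0.21), or 1.76-fold, and this probe set was not called. It was called without wild type replicate 3, where the difference was 1.05. The dimmer read 231, 182 and 254 in the mutant, against 277, 154 and 81 in the wild type. Its arrays overlapped, and the wild-type arrays alone spread over 3.42-fold.

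The 2 calr probe sets ran in opposite directions across the wild-type arrays. Relative to the wild-type mean, the brighter one was at -0.43 in replicate 1 and 0.46 in replicate 3 on the log2 scale, and the dimmer one at 0.87 and -0.90. With the actc1b ratio as a covariate, which was highest in wild type replicate 3, they moved apart to 1.48 (SE 0.35) and -0.93 (SE 0.59), from log2 differences of 0.82 and 0.54 (SE 0.40) without it. With the gapdhs ratio they were at 1.06 (SE 0.33) and -0.24 (SE 0.55). The part of RNA quality in this was not tested.

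The BiP gene hspa5 showed no difference larger than its spread. Its signal was 1945, 1763 and 1655 in the mutant, against 2146, 1740 and 1428 in the wild type. The mutant values all lay inside the range of the wild-type values. The log2 difference was 0.03 (SE 0.17), with a 95% interval from -0.35 to 0.41. It ran from -0.12 to 0.18 with 1 array left out, and was -0.04 (SE 0.27) with the gapdhs ratio and -0.53 (SE 0.27) with the actc1b ratio as a covariate.

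**Figure D2:**
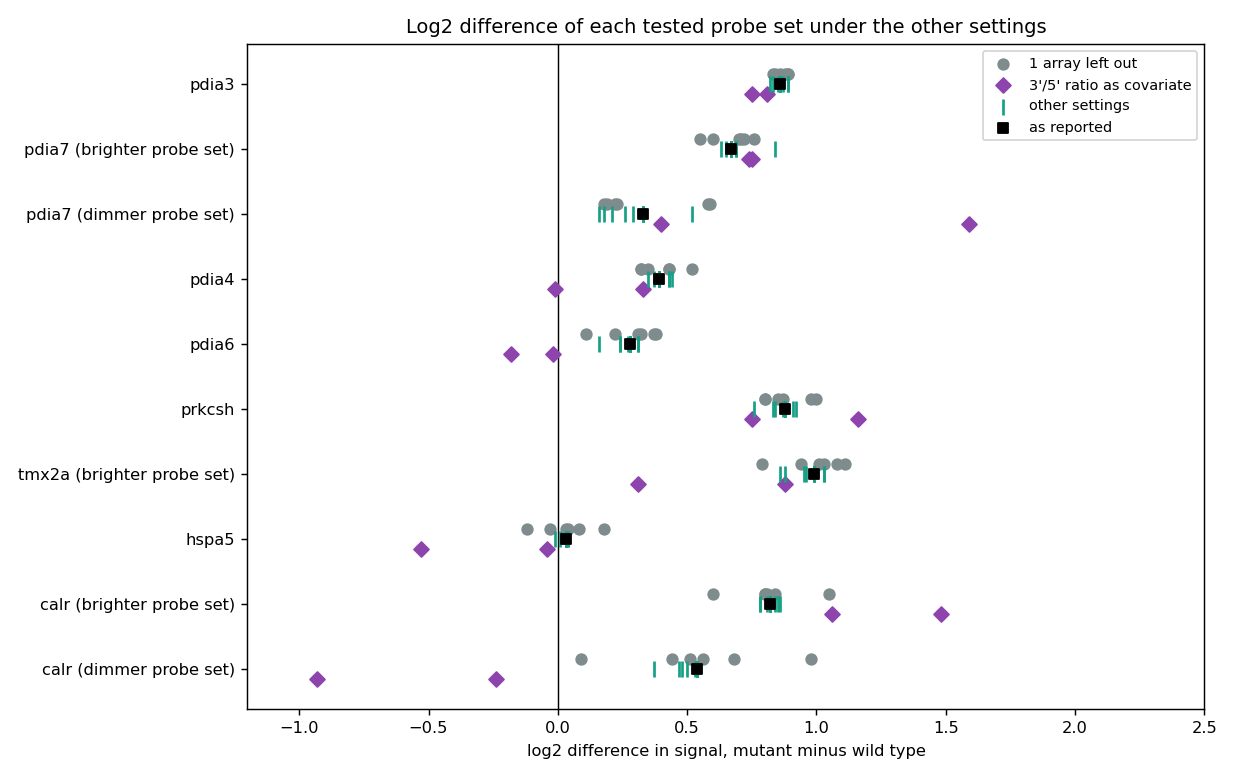
Log2 difference in signal, mutant minus wild type (horizontal axis), for the 10 tested probe sets as reported (black squares), with 1 array left out (grey circles), with a control 3' over 5' ratio as a covariate (purple diamonds) and under the other settings (green bars). The values of pdia3 stay between 0.75 and 0.89, while those of the dimmer calr probe set run from -0.93 to 0.98.

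The wild-type arrays carried most of the spread of these genes. The SD of the log2 signal was larger in the wild type than in the mutant for 9 of the 11 probe sets, with medians of 0.13 in the mutant, against 0.30 in the wild type. Over all tested probe sets 55.3% had the larger SD in the wild type, and the medians were 0.22 in the mutant, against 0.24 in the wild type. The exceptions were pdia3 (SD 0.06 in the mutant, 0.05 in the wild type) and prkcsh (0.20 and 0.18). Wild type replicate 3 was the lowest wild-type array for 7 of the 11 probe sets, among them hspa5 (-0.29 from its genotype mean), pdia6 (-0.35), and both tmx2a probe sets (-0.40 and -0.37). It was the highest for 3: the brighter calr probe set and both pdia7 probe sets (0.18 and 0.52). The share of all tested probe sets lowest or highest in that array was not determined. These counts are therefore not shown to be particular to these genes.

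**Figure D3:**
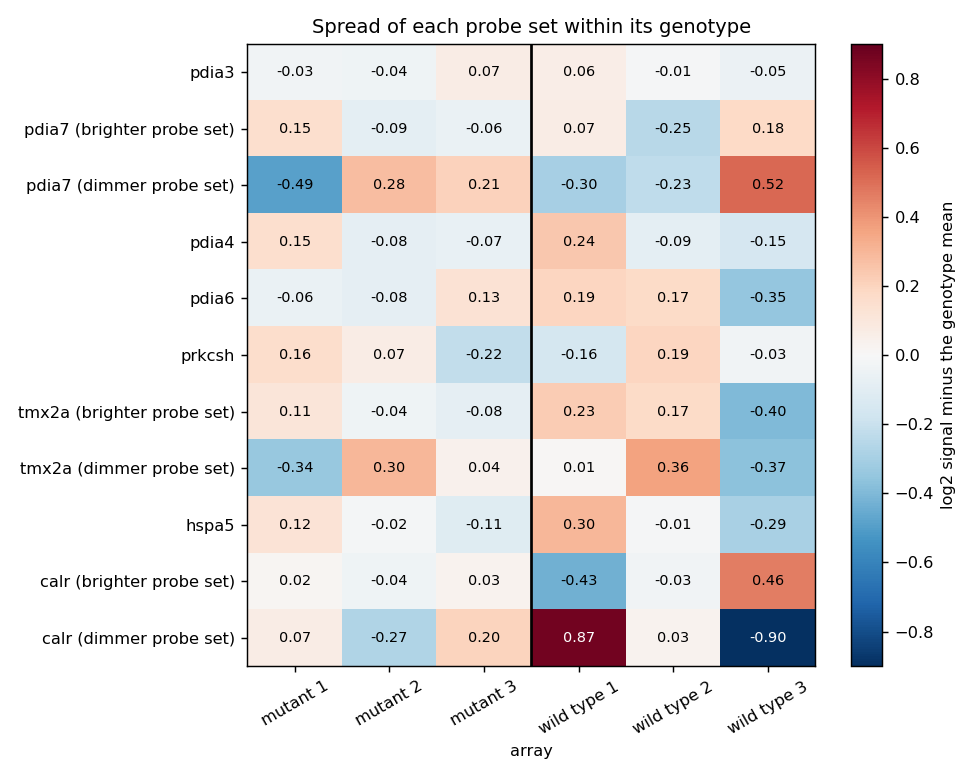
Log2 signal of each probe set (rows) on each array (columns) minus the mean of that genotype, in colour and as a number. Wild type replicates 1 and 3 hold the values farthest from 0, from 0.87 to -0.90 for the dimmer calr probe set, and the pdia3 values lie between -0.05 and 0.07.

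Other genes of the pathway were examined to see how far these differences extended. Of 178 gene symbols in 7 lists, without the 8, 113 had a probe set named for them alone and 107 of these passed the filter. The remaining symbols were not read. Each of the 107 genes was read from its brightest tested probe set. Of these, agr2 rose and the other 106 did not pass in limma, where 3.16% of all named genes read this way were called (1.49% higher, 1.67% lower). The lists had a median log2 difference of -0.05 over the 107 genes, with 49 above 0 and 58 below, where all named genes had a median of 0.00. At an unadjusted p under 0.05, 7 were higher and 11 lower, where 20.3% of all named genes reached it (10% higher, 10.2% lower). For 94 of the 107 the 95% interval of the log2 difference lay within 2-fold in either direction, where this held for 5204 of all 7053 named genes.

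Among the 8 other disulfide isomerase family genes tested, agr2 rose and 7 did not pass. It encodes an isomerase of secretory cells, where it assists the folding of mucins in mammals. Its signal was 4630, 4958 and 5029 in the mutant, against 887, 910 and 1235 in the wild type, a log2 difference of 2.28 (SE 0.15, limma adjusted p = 0.000123) or 4.87-fold. It was called in all 19 alternative fits, at 2.38 with the gapdhs ratio and 2.79 with the actc1b ratio as a covariate. The median of the 8 was 0.10. The ER isomerase gene txndc5 was at -0.05 (limma adjusted p = 0.885), erp44, whose product retains unassembled proteins, at -0.10 (0.721), and pdia5 at -0.20 (0.631), 3 genes named after their values were seen. Dimmer tested probe sets of txndc5 (0.46 and 0.29) and pdia5 (0.41) had the other sign, and none passed (limma adjusted p = 0.576, 0.676 and 0.436).

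None of the 5 genes of ER oxidation passed in limma, and none reached an unadjusted p under 0.05. The peroxiredoxin gene prdx4, whose product helps oxidise isomerases, was at 0.34 (limma adjusted p = 0.392), and the sulfhydryl oxidase gene qsox1 at 0.24 (0.496). The median of the list was -0.03.

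Of 13 genes of the calnexin cycle and lectins, none passed in limma (2 higher and 2 lower at an unadjusted p under 0.05), and the median was -0.19. The smallest p-values were those of edem2, whose product helps send misfolded glycoproteins to degradation, at -0.95 (SE 0.30, limma adjusted p = 0.12), and mcfd2, a cargo receptor subunit gene, at 0.44 (SE 0.15, limma adjusted p = 0.142). Relatives of calr in this list are named after their values were seen. The calreticulin gene calr3a had a signal of 4818, 5481 and 5015 in the mutant, against 4188, 4059 and 4315 in the wild type. Its log2 difference was separated but small at 0.28 (SE 0.11, limma adjusted p = 0.187), and 13.2% of all tested probe sets were separated in this direction. Calnexin, canx, was at 0.01 with a 95% interval from -0.30 to 0.31 (limma adjusted p = 0.986). The second calreticulin paralog calr3b was at -0.23 (limma adjusted p = 0.685) and calmegin, clgn, at -0.20 (0.517).

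Of 16 other ER chaperone and folding genes, none passed in limma (2 higher and 1 lower at an unadjusted p under 0.05), with a median of 0.17. The closest was cnpy3, which encodes a co-chaperone for Toll-like receptors in mammals. Its signal was 319, 356 and 409 in the mutant, against 111, 211 and 208 in the wild type, a log2 difference of 1.08 (SE 0.27, limma adjusted p = 0.0656). A BiP co-chaperone gene, dnajb11, had the next smallest p. It read 1013, 922 and 644 in the mutant, against 1526, 1451 and 1099 in the wild type, a log2 difference of -0.67 (SE 0.21, limma adjusted p = 0.112). So the 3 mutant arrays were lower than any wild-type array for this partner of hspa5, without passing the test. The same held for 13.8% of all tested probe sets.

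Other chaperone genes were read after their values were seen. The glycoprotein chaperone gene hsp90b1 (GRP94) was at 0.47 (SE 0.22, limma adjusted p = 0.265), and the BiP exchange factor gene hyou1 at -0.08 (0.775). The secreted ER stress factor gene manf had 2 tested probe sets, at 0.82 (SE 0.27, limma adjusted p = 0.132) and 2.04 (SE 0.50, limma adjusted p = 0.0614). The second of these manf probe sets read 254, 223 and 262 in the mutant, against 148, 46.9 and 30.6 in the wild type. The prolyl isomerase gene ppib read 10417, 11045 and 11558 in the mutant, against 10243, 8218 and 3483 in the wild type, and was also lowest in wild type replicate 3 (log2 difference 0.73, SE 0.33, limma adjusted p = 0.254). Not every gene of this list was low there. In wild type replicates 1, 2 and 3 hyou1 read 1195, 1262 and 1336, and the prolyl isomerase gene fkbp2 1835, 2187 and 2571. Wild type replicate 3 had the highest control 3' over 5' ratios of all 6 arrays, as given above, and the part of RNA quality in these values was not tested.

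The upstream steps of the secretory pathway held no call in limma. Of 24 genes of oligosaccharide transfer to new glycoproteins, 1 was lower at an unadjusted p under 0.05, the median was 0.07, and 22 had an interval within 2-fold. The smallest p-values were those of dpm3, a dolichol-phosphate-mannose synthase subunit gene, at -0.62 (limma adjusted p = 0.136), and ostc, an oligosaccharyltransferase subunit gene, at 0.32 (0.257). Of 20 genes of ER translocation, 1 was higher and 5 lower at an unadjusted p under 0.05, with a median of -0.14. The signal recognition particle genes srp68 (-0.43, limma adjusted p = 0.109) and srp72 (-0.51, 0.128) led this list. Both had the 3 mutant arrays lower than any wild-type array, as did 13.8% of all tested probe sets.

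In the unfolded protein response and ER-associated degradation (ERAD), none of 21 genes passed in limma (1 higher and 2 lower at an unadjusted p under 0.05), the median was -0.13, and 19 had an interval within 2-fold. The smallest p-values were those of derl1, a subunit gene of the retrotranslocation complex, at -0.32 (limma adjusted p = 0.22), and creb3l2, a transcription factor gene of secretory cells, at 0.43 (0.226). Of the response's own regulators and targets, read after their values were seen, xbp1 had a signal of 3699, 3345 and 3133 in the mutant, against 3448, 3994 and 2753 in the wild type. Its log2 difference was 0.01, with a 95% interval from -0.34 to 0.36 (limma adjusted p = 0.975). The xbp1 probe set does not show splicing. The ERAD gene herpud1 was at 0.02 (95% interval -0.40 to 0.44, limma adjusted p = 0.964) and atf4a at 0.47 (95% interval -0.05 to 1.0, limma adjusted p = 0.287). Its paralog atf4b was at -0.11 (limma adjusted p = 0.803). In the whole list 7 genes were above 0 and 14 below.

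**Figure D4:**
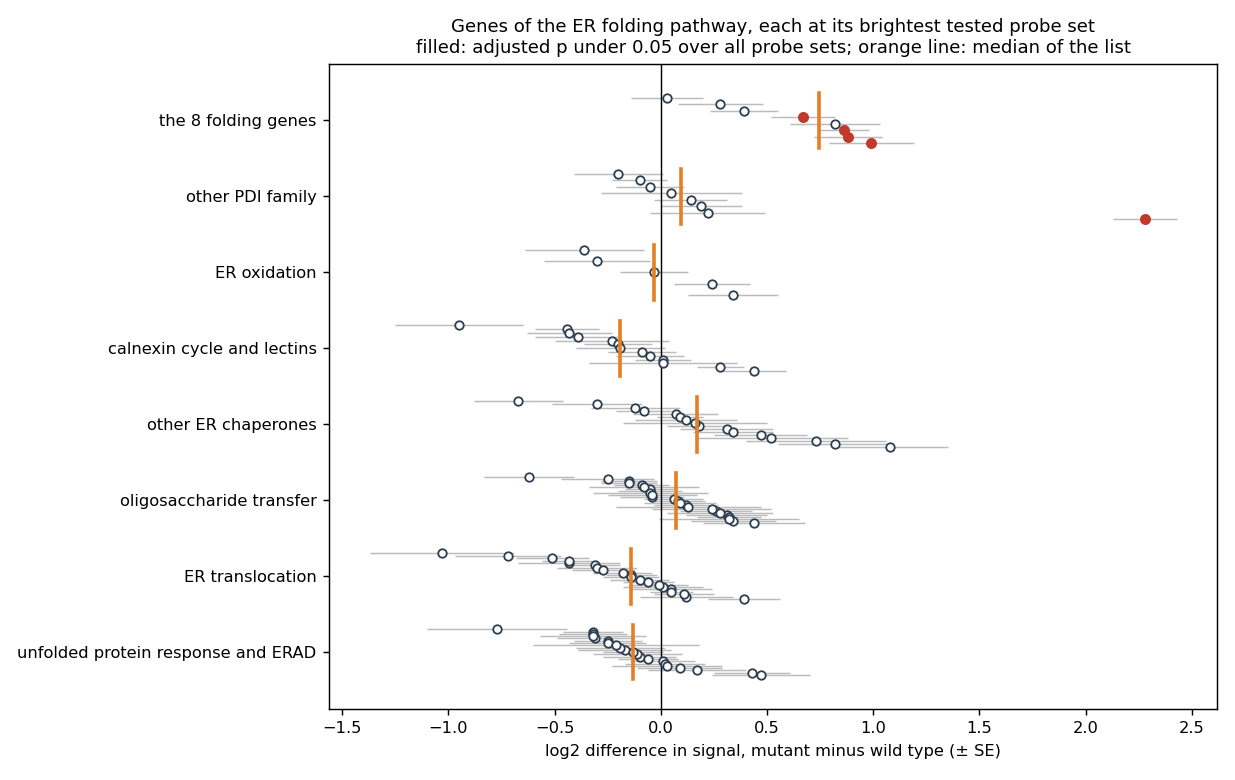
Log2 difference in signal, mutant minus wild type, ± SE (horizontal axis) for the 8 folding genes and 107 other genes in 7 lists (rows), each at its brightest tested probe set. Filled points have an adjusted p under 0.05, and the orange lines are the medians: 0.75 for the 8 chosen genes and -0.19 to 0.17 for the lists, in which agr2 at 2.28 is the only filled point.

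Markers of tissues rich in this machinery, and of muscle, were set beside these values. Over all named genes 1.49% were called higher and 1.67% lower, and 10% were higher at an unadjusted p under 0.05. Of the hatching gland list 3 genes were measured and none was at 0: agr2, klf17 and cd63. Their summed signal was 8805 to 9790 in the mutant, against 4602 to 5827 in the wild type. Without agr2 the sum overlapped between genotypes, at 3847 to 4761 in the mutant, against 3691 to 4592 in the wild type, and the gland factor gene klf17 (-0.35, limma adjusted p = 0.526) and the membrane protein gene cd63 (0.11, 0.709) did not pass. The hatching enzyme genes he1.1 and he1.2 and the gland protease gene ctslb are not analysed here.

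Of 9 notochord genes tested, none passed in limma (4 higher at an unadjusted p under 0.05), and 8 of 9 were above 0 with a median of 0.29. The gene below 0, cav1, was at -0.23, while its dimmer tested probe sets were at -0.44, 0.37 and 1.22, none passing. The collagen gene col9a2 was at 0.77 (limma adjusted p = 0.0564) and the laminin gene lamc1 at 1.45 (0.0514). The lamc1 signal was 79.1, 105 and 105 in the mutant, against 28.8, 50.6 and 29.2 in the wild type. Its wild-type mean log2 signal of 5.13 lay under the filter level of 5.36, so it was tested only through its mutant arrays. The summed signal of the 11 notochord genes measured, none at 0, was 17774 to 20543 in the mutant, against 11566 to 17370 in the wild type. Of 10 liver and yolk syncytial layer genes tested, 1 passed, ambp, which encodes a plasma protein precursor, and 9 did not. The ambp difference was 0.98 (limma adjusted p = 0.0371), but it no longer passed at 0.61 with the gapdhs ratio (0.54) or 0.21 with the actc1b ratio (0.816) as a covariate, nor with the replicate block (0.0655) or without the variance trend (0.0801). The sums of the 13 measured, none at 0, overlapped, at 125797 to 136621 in the mutant, against 116006 to 129809 in the wild type.

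Of 11 skeletal muscle genes tested, 4 rose and 2 fell. The slow myosin gene smyhc1 fell, with a log2 difference of -2.98 (limma adjusted p = 2.82e-05), and the fast troponin genes tnnt3b (1.19, limma adjusted p = 0.0377) and tnnt3a (1.16, 0.00453) rose. Adjusted for the gapdhs ratio and for the actc1b ratio, smyhc1 was at -2.69 and -2.89 and still passed, while tnnt3a at 1.32 and 0.96 (limma adjusted p = 0.0686 and 0.252) and tnnt3b at 1.40 and 1.04 (0.266 and 0.467) did not. The other gene that fell was the myosin light chain gene myl13, at -0.98 (limma adjusted p = 0.00824), named after its values were seen. Also named after their values were seen, mylpfa (0.71, limma adjusted p = 0.0163) and tpma (0.60, 0.0365) were the others that rose. A dimmer tested probe set of mylpfa was at 0.23 and did not pass (limma adjusted p = 0.323). With either ratio as a covariate myl13, mylpfa and tpma no longer passed. The summed signal of the 11, none at 0, was 112220 to 137480 in the mutant, against 92737 to 99590 in the wild type. The notochord and muscle sums were thus higher in every mutant array, the notochord sum narrowly (lowest mutant 17774, highest wild type 17370). The muscle sum held genes that rose and genes that fell. The part of these tissues in the differences of the 8 genes was not tested.

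The mean profile of the 8 genes, each centred on its own mean, was 0.39, 0.27 and 0.27 in the mutant arrays, against -0.25, -0.29 and -0.39 in the wild-type arrays on the log2 scale. The named genes most like it over the 6 arrays were krt97 (Pearson r = 0.999), pdcl3 (0.997), cav3 (0.994), dnaja2a (0.993) and actc1b (0.992). Their own log2 differences were 1.1, 3.65, 0.78, 0.50 and 0.32. The ranking was over probe sets, and the actc1b one here is not its brightest, which was at 0.38. With 6 arrays in 2 genotypes these correlations mainly show the gap between genotypes, and they describe likeness only.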

How the data were processed

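The deposited values are probe set intensities, one column per array, which the authors computed in MAS5, per the submitters' processing notes. No version or scaling setting is given in the sources used here. A trimmed mean of 500.13 to 500.14 on every array shows a common scaling before deposit. Gene names came from the platform annotation (10802 probe sets with 1 symbol, 135 with several, 4680 with none). Of the single symbols, 10718 were matched to RefSeq (GRCz12tu) by gene ID, 1 was updated, and those without a match were kept. No name was given to probe sets with several symbols or none.

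Intensities were log2-transformed. Without the 115 control probe sets 15502 remained, of which the dimmest 30% (mean log2 signal under 5.36) were left out. The other 10851 were tested with limma 3.58.1 (R 4.3.3; linear model with trended empirical Bayes variance, genotype as the only term, Benjamini-Hochberg over all tested probe sets at 0.05). The fit was also run on simulated data with independent normal noise. Those data held no gap in RNA quality between genotypes, so they cannot show how the fit behaves with the gap seen here. Summaries and figures used Python 3.11.15 and matplotlib 3.10.9.

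The 8 genes, the lists and the naming rule were chosen with earlier results of these data known. The rule names every probe set of the 8 genes, list genes past the threshold (up to 6 per pathway list and 3 per marker list, by size), or the 2 with the smallest p where none passed, and the 5 genes most like the mean profile. Alternatives were other normalizations, offsets, filters and variance models, the replicate number as a block, control ratios as covariates, and each array left out. The labels do not say whether replicates were separate clutches, and p-values then cover only the spread among these 6 samples, which may be technical.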

Additional observations from a re-analysis of the deposited data

How the results depend on the processing

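Of 189 values of the member probe sets under the alternatives, 178 stayed within 1 SD of the replicates. The other 11 came with a control 3' over 5' ratio as a covariate. Called probe sets kept their sign throughout. For probe sets not called, the sign changed in pdia4, pdia6, hspa5 and the dimmer calr probe set, as low as -0.01, -0.18, -0.53 and -0.93. Of the 4 member probe sets called, 1 remained called without the variance trend (pdia3) and 0 with the gapdhs or the actc1b ratio. With 1 array left out, 1 to 5 of all member probe sets tested were called, and pdia3 was called in all 6 such fits. The 5, without wild type replicate 3, were those 4 and the brighter calr probe set. Over all probe sets, 368 calls became 1416 with array weights, 44 and 26 with the gapdhs and actc1b ratios, and 114 to 461 with 1 array left out. Calls among the 107 pathway genes rose from 1 to 10 with array weights (3 higher, 7 lower) and were 1 to 3 with 1 array left out: spcs2 (lower) joined agr2 without mutant replicate 2, and manf and serpinh1b (higher) without wild type replicate 1. Among the marker genes 8 were called, against 5 without the variance trend (4 of the 8, and lamc1), 13 with array weights (all 8 and others), 2 with either ratio (agr2 and smyhc1), and 3 to 9 with 1 array left out. Of calls, 45.4% were higher, against 61.5% with the actc1b ratio, 31.8% without mutant replicate 3 and 56% without wild type replicate 3. The ambp call ended in 8 alternatives and that of tnnt3b in 8, while lamc1, with its wild-type mean under the filter level, passed in 6. Why these counts moved was not tested, and the fits with a ratio cannot cleanly separate it from genotype. Deviations of same-numbered arrays correlated at 0.0613, 0.0523 and -0.0749, so no effect shared by replicate number was seen. Deviations centred on 3 arrays a genotype cannot tell whether the samples were paired. With the replicate block 260 probe sets, 3 member probe sets, 1 pathway gene and 6 marker genes were called. The permutation p of both control ratios was 0.1 on the log2 scale too.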
